A study of Mus musculus with 16 samples.

Results

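The 10 genes described here are the secreted angiogenic factors Vegfa, Vegfb, Apln, Angpt1 and Angpt2 and the endothelial surface proteins Kdr, Flt1, Tek, Pecam1 and Cdh5, taken from a count matrix of 55487 mouse genes by matching Ensembl identifiers to these symbols. All 10 were in the matrix and all 10 were among the 18275 genes with enough counts to be tested. RNA from the heart apex of 16 male mice weighing 25 to 30 g was sequenced 4 weeks after surgery as poly(A)-selected libraries, with 4 animals in each of 4 groups. Ctrl mice (genotype WT in the labels) and Cardinal-KO mice (genotype CARDINAL-KO), which lack the cardiac lncRNA Cardinal through CRISPR/Cas9 deletion, had either transverse aortic constriction (TAC), a ligature around the aorta that raises the pressure the heart works against, or a sham operation without ligature. The age and strain of the mice were not given in the sources used here.

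Vessel growth is driven by the VEGF ligands, which bind receptor tyrosine kinases on endothelial cells. Vegfa acts mainly through Kdr (VEGFR2), while Flt1 (VEGFR1) binds Vegfa tightly but signals weakly and so takes it away from Kdr. Of these kinases Vegfb binds Flt1 alone, and it is made in large amounts by cardiomyocytes. Angpt1, made by cells that surround vessels, activates the receptor Tek (Tie2) and steadies the vessel wall, and Angpt2, released by endothelial cells, mostly opposes it. Apln (apelin) is a peptide made by sprouting endothelium, Pecam1 (CD31) is an adhesion molecule found over the whole endothelium, and Cdh5 (VE-cadherin) holds endothelial junctions together.

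In GRCm38 (GENCODE M21 gene bounds), Vegfa (ENSMUSG00000023951) lies at chr17:46016993-46032369 and Vegfb (ENSMUSG00000024962) at chr19:6982473-6987651. Apln (ENSMUSG00000037010) lies at chrX:48025146-48034853, Angpt1 (ENSMUSG00000022309) at chr15:42424723-42676977 and Angpt2 (ENSMUSG00000031465) at chr8:18690263-18741562. Kdr (ENSMUSG00000062960) and Flt1 (ENSMUSG00000029648) lie on the same chromosome, at chr5:75932827-75978458 and chr5:147561604-147726011. Tek (ENSMUSG00000006386) lies at chr4:94739289-94874976, Pecam1 (ENSMUSG00000020717) at chr11:106654217-106750628 and Cdh5 (ENSMUSG00000031871) at chr8:104101625-104144511. Tek and Cdh5 are on the plus strand and the other 8 genes on the minus strand. The exons of Angpt1 share 737 bases with Gm17473, which is transcribed from the other strand; since strand use in the counting was not given in the sources used here, reads of the 2 genes cannot be told apart there and the Angpt1 values are uncertain to that extent.

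Shown are 3 promoters, those of the ligands that the results on TAC turn on and for which RefSeq windows were at hand; each runs from 250 bases before to 50 after the annotated start (RefSeq, GRCm38.p6, minus strand). Capitals mark matches on either strand to the hypoxia-response core, searched as the letters ACGTG and GCGTG. The windows are chr19:6987602-6987901 for Vegfb, chrX:48034804-48035103 for Apln and chr17:46032328-46032627 for Vegfa.
Vegfb: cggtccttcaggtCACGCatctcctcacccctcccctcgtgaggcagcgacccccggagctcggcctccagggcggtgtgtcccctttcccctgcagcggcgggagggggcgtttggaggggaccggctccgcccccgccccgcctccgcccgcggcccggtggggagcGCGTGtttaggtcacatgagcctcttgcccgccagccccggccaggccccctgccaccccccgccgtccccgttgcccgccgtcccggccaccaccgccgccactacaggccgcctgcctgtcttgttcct
Apln: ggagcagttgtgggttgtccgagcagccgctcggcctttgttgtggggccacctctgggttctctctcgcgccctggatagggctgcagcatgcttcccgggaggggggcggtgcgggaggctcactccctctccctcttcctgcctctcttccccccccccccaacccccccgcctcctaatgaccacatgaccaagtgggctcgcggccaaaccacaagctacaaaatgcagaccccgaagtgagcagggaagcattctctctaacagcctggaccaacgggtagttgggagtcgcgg
Vegfa: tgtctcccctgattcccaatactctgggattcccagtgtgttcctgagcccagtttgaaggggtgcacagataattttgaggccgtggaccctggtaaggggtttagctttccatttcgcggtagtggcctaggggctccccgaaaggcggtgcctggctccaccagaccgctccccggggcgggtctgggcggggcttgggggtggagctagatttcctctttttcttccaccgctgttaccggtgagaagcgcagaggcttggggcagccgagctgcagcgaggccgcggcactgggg
The Vegfb window held 2 matches to the hypoxia-response core, and the Apln window and this Vegfa window held 0. A second RefSeq start of Vegfa, whose window lies inside the gene at chr17:46025114-46025413, held 2 matches, the Kdr window 2, the Flt1 window 1 and the Tek window 0. Of 32851 mouse promoter windows of this length, 43.8% held at least 1 match. The element AAGGTCA, bound by the estrogen-related receptors that control mitochondrial genes, was in 4.72% of all windows and in 0 of the 7 windows of the 6 genes matched. Angpt1, Angpt2, Pecam1 and Cdh5 had no entry. A match in these letters is a description of the sequence and not a binding site.

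Library totals ran from 53169437 to 79404714 counts, and the least abundant gene of the set, Angpt2, had 109 to 276 counts per library. Levels are given in CPM, counts scaled by library size and TMM factor. Cardinal itself, the check of the genotype, was at 0.276 to 0.553 CPM in 7 of the 8 KO libraries and at 2.69 to 8.02 CPM in the 8 Ctrl libraries. The library labelled KO TAC 4 had Cardinal at 4.55 CPM, against its label, so the fits were repeated without it: every call named below for KO TAC held in that fit except where its loss is stated. List counts printed below that changed in it are given. Ctrl TAC 2 stood apart on the second principal component of all tested genes, at -62.5 against -3.40 to 13.8 in the other 15 libraries. The apex tissue carried the markers of its cell types: none of 12 marker lists had a gene at 0 in all libraries, and the summed level of 20 endothelial identity genes was 778 to 816 CPM in Ctrl sham, 774 to 909 in KO sham, 816 to 947 in Ctrl TAC and 864 to 927 in KO TAC. In RNA of whole tissue, fewer cells of a type and less RNA per cell cannot be told apart.

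Per kilobase of exon, which allows genes to be set beside each other, Vegfb was the most abundant of the 10 in every group and Angpt2 the least. Vegfb stood at 117 ± 8.19 CPM per kilobase (SD, n = 4) in Ctrl sham, followed by Vegfa at 60.9 ± 8.99, Cdh5 at 33.2 ± 1.64 and Pecam1 at 18.3 ± 0.825, and the libraries of Vegfb, Vegfa, Cdh5 and Pecam1 did not overlap. The VEGF receptors came next: Kdr at 15.7 ± 2.82 and Flt1 at 11.7 ± 1.79 CPM per kilobase in Ctrl sham, with Kdr overlapping both Pecam1 and Flt1. Tek was at 9.94 ± 1.01 and Angpt1 at 8.11 ± 1.18, and their libraries overlapped, as did those of Tek and Flt1. Apln at 3.52 ± 0.758 and Angpt2 at 0.662 ± 0.136 CPM per kilobase lay apart below them. In KO sham the order was the same, with the Angpt1 libraries reaching down into the range of Apln. After TAC the order of the means was also the same in Ctrl, and in KO Tek and Flt1 were both at 10.2 CPM per kilobase. Exon length is the union over all annotated isoforms, so a gene of which only short isoforms are used is understated.

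**Figure D1:**
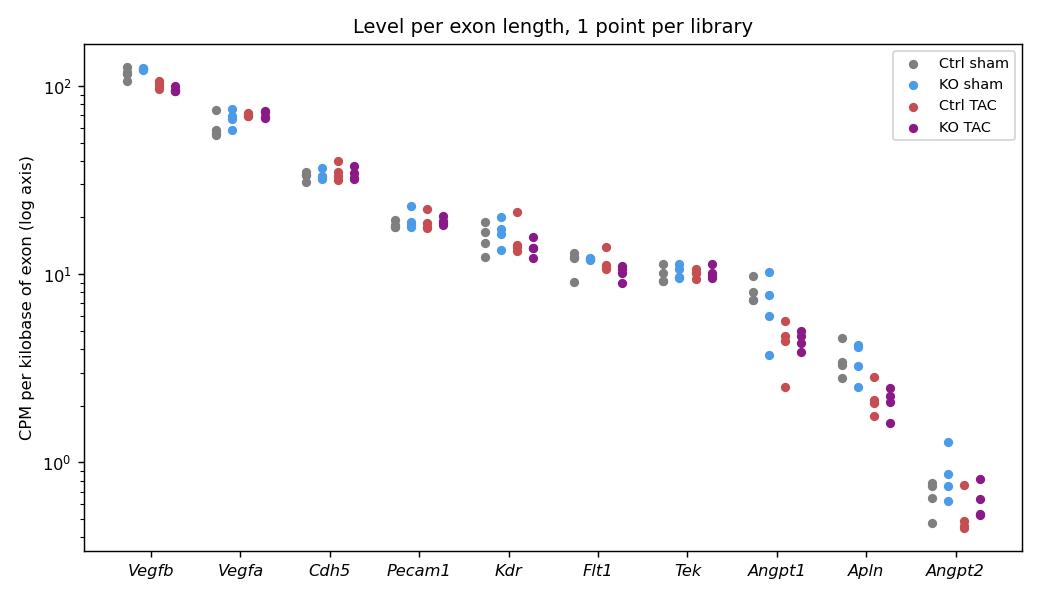
Level of each gene in CPM per kilobase of exon (log axis) in the 16 libraries, coloured by group. The factors span the range from Vegfb at the top to Angpt2 at the bottom, and the receptors and junction genes lie between them.

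The first question was what pressure overload did to these genes in Ctrl hearts. Vegfb, Apln and Angpt1, all secreted factors, were lower after TAC, none of the 10 was higher, and the 5 endothelial surface proteins passed no test. With a call meaning an adjusted p under 0.05 (edgeR quasi-likelihood test, Benjamini-Hochberg over the 18275 genes), 3 of 10 were called, all lower, where 20.0% of all genes were called and 9.6% were called lower. The median log2 fold change was 0.001 over the 10 genes and 0.004 over all genes tested. In Cardinal-KO hearts 2 of 10 were called after TAC, Vegfb and Apln, again both lower, where 34.3% of all genes were called and 16.5% were called lower. The median there was -0.26 over the 10 genes against -0.004 over all genes. Without the library labelled KO TAC 4, Vegfb and Apln were called as before.

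Vegfb, a ligand of Flt1, was at 203, 187, 171 and 191 CPM in the 4 Ctrl sham libraries and at 197, 197, 195 and 199 CPM in KO sham. After TAC it was at 164, 161, 170 and 154 CPM in Ctrl and at 160, 150, 150 and 153 CPM in KO. Every TAC library lay below every sham library of its own genotype and of the other, which 5.42% of all genes showed in this direction. The log2 fold change was -0.21 ± 0.0498 (SE) in Ctrl, a change of -13.5% with a 95% interval from -19.6 to -7.02% (adjusted p = 0.00577), and the call was lost with a term for the animal numbers starting with 25 (-0.20, adjusted p = 0.0626). In KO it was -0.36 ± 0.0499, a change of -22.2% with an interval from -27.7 to -16.4% (adjusted p = 1.92e-05), and -0.36 without KO TAC 4 (adjusted p = 0.000119). The difference between these effects was -0.15 on the log2 scale (genotype by surgery interaction, edgeR adjusted p = 0.433; 0.472 without KO TAC 4) and did not pass the test.

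Apln was among the factors with the lowest levels. Ctrl sham libraries had 8.81, 14.4, 10.7 and 10.3 CPM and KO sham libraries 10.3, 12.9, 13.2 and 7.87 CPM. Ctrl TAC libraries had 8.96, 6.50, 6.75 and 5.57 CPM and KO TAC libraries 7.83, 7.06, 6.61 and 5.11 CPM. Ctrl TAC 1 reached just into the sham range, while in KO the groups lay apart by a small step, from 7.83 to 7.87 CPM; 16.6% of all genes had their KO TAC libraries below all KO sham libraries. The log2 fold change of Apln was -0.68 ± 0.191 in Ctrl (-37.4%, adjusted p = 0.0200) and -0.73 ± 0.191 in KO (-39.9%, adjusted p = 0.00707), or -0.62 in KO without KO TAC 4 (adjusted p = 0.0247). In Ctrl the call held in 13 of 16 fits made without 1 library. It was lost, among others, without Ctrl TAC 2 (-0.65, adjusted p = 0.0512). It was also lost with a term for the animal numbers starting with 25, which are those of Ctrl TAC 2 to 4 and KO TAC 4 (-0.32, adjusted p = 0.372). In KO it was lost with a term for the animal numbers starting with 33 (-0.54, adjusted p = 0.150), all of them sham libraries. The receptor gene of apelin, Aplnr, passed no test, with means of 18.2 ± 5.74 CPM in Ctrl sham, 17.4 ± 6.44 in KO sham, 21.3 ± 8.40 in Ctrl TAC and 22.3 ± 2.22 in KO TAC.

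Angpt1, the ligand that activates Tek, was at 50.9, 37.9, 38.0 and 42.0 CPM in Ctrl sham and at 53.5, 31.2, 19.3 and 40.5 CPM in KO sham. It was at 13.1, 22.8, 29.3 and 24.4 CPM in Ctrl TAC and at 22.3, 20.0, 24.3 and 26.1 CPM in KO TAC. In Ctrl all 4 TAC libraries lay below all 4 sham libraries, a pattern that 9.97% of all genes showed in this direction. In KO the groups overlapped through KO sham 3, the lowest sham library, which lay below all KO TAC libraries. The log2 fold change was -0.91 ± 0.279 in Ctrl (-46.9%, adjusted p = 0.0350) and -0.64 ± 0.278 in KO (adjusted p = 0.0952; -0.70 and 0.115 without KO TAC 4). The Angpt1 call in Ctrl was lost without Ctrl TAC 2 (-0.92, adjusted p = 0.0685) and held in 10 of 16 fits made without 1 library. The difference between the genotypes in the response of Angpt1 was 0.27 ± 0.392 on the log2 scale (adjusted p = 0.856; 0.898 without KO TAC 4).

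The mean of the TAC effects in Ctrl and KO uses all 16 libraries and was tested in addition, after the values were known. Vegfb (-0.29 ± 0.0353, adjusted p = 3.47e-06), Apln (-0.71 ± 0.135, adjusted p = 0.000547) and Angpt1 (-0.78 ± 0.197, adjusted p = 0.00629) were called, all lower, where 41.5% of all genes were called and 20.2% were called lower. These 3 calls held in all 16 fits made without 1 library and in the other 7 alternatives run for this contrast.

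**Figure D2:**
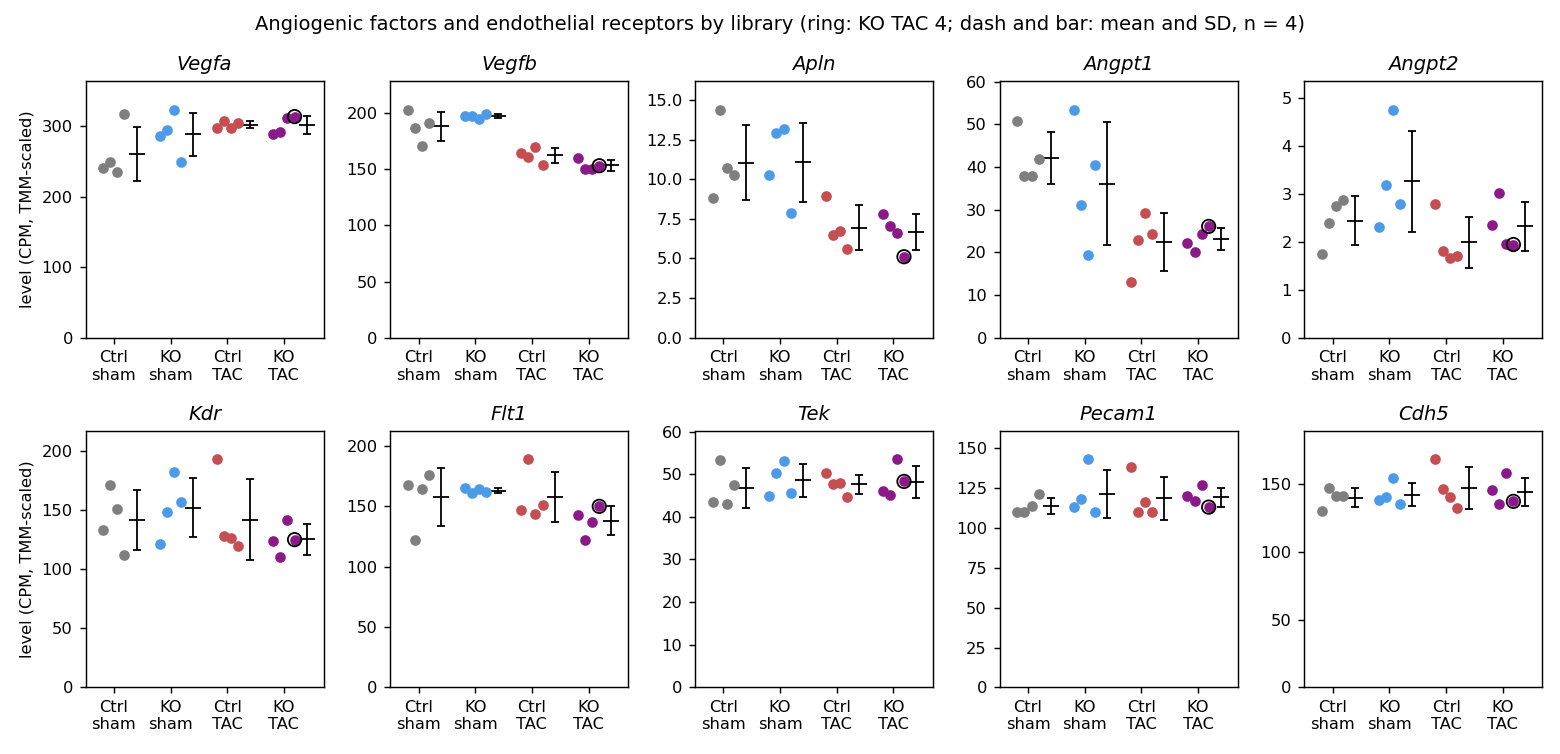
Level of each gene in CPM (linear axis from 0) in the 16 libraries, with the mean and SD of the 4 libraries of a group beside them and a ring around KO TAC 4. Vegfb, Apln and Angpt1 step down from sham to TAC, while Tek, Pecam1 and Cdh5 stay within 1 range in all 4 groups.

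Vegfa, the main ligand of Kdr, took no part in this fall. It was at 241, 249, 235 and 318 CPM in Ctrl sham and at 287, 295, 324 and 249 CPM in KO sham. After TAC it was at 298, 308, 298 and 305 CPM in Ctrl and at 289, 292, 312 and 314 CPM in KO, so that the 8 TAC libraries were close together and the sham libraries spread around them. The log2 fold change of Vegfa was 0.21 ± 0.0845 in Ctrl (adjusted p = 0.0882) and 0.06 ± 0.0844 in KO (adjusted p = 0.618), with a 95% interval in KO from -7.70 to 18.1% and 0.04 in KO without KO TAC 4 (adjusted p = 0.774). The sham spread of Vegfa followed the animal numbers in the labels: the 4 sham libraries whose number starts with 33 (Ctrl sham 4 and KO sham 1 to 3) were at 287 to 324 CPM and the other 4 at 235 to 249 CPM. Of all genes, 3.76% lay apart in this direction between these sham libraries. With this number as a term in the fit, added to the comparison of TAC with sham, the log2 fold change of Vegfa was 0.31 in Ctrl and 0.32 in KO. All libraries with such a number are sham, and KO sham 4 is the lone KO sham library without one. The split was seen in these same sham values, so this fit cannot test whether Vegfa rose. The labels do not say what the numbers mark beyond the animal.

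Angpt2, which opposes Angpt1 at Tek, was the least abundant factor and passed no test. Its levels were 1.75, 2.39, 2.75 and 2.87 CPM in Ctrl sham, 2.31, 3.18, 4.75 and 2.78 in KO sham, 2.78, 1.81, 1.66 and 1.70 in Ctrl TAC and 2.35, 3.02, 1.96 and 1.94 in KO TAC. The log2 fold change with TAC was -0.30 ± 0.232 in Ctrl (adjusted p = 0.413) and -0.49 ± 0.228 in KO (adjusted p = 0.106; -0.41 and 0.235 without KO TAC 4).

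Among the receptors, Kdr was at 133, 171, 151 and 112 CPM in Ctrl sham and at 193, 128, 126 and 120 CPM in Ctrl TAC. In KO it was at 121, 148, 182 and 157 CPM after sham and at 124, 110, 142 and 125 CPM after TAC. The spread within groups was as large as any step between them, and the 95% intervals of the TAC effect ran from -21.9 to 28.2% in Ctrl and from -35.8 to 5.45% in KO (log2 fold change -0.28 with and without KO TAC 4). Flt1, a receptor of Vegfb, was at 168, 122, 164 and 176 CPM in Ctrl sham and at 147, 189, 144 and 151 in Ctrl TAC, with full overlap. In KO it was at 165, 161, 164 and 162 CPM after sham and at 143, 122, 137 and 150 after TAC, so every TAC library lay below every sham library. That pattern was shown by 16.6% of all genes, and the log2 fold change of Flt1 in KO, -0.24 ± 0.102, missed the threshold (adjusted p = 0.0826; -0.28 and 0.0669 without KO TAC 4). Without Ctrl TAC 2, which belongs to neither group of this contrast but shares the fit, it passed (-0.24, adjusted p = 0.0416). The interaction for Flt1 was -0.24 ± 0.145 (adjusted p = 0.569; 0.502 without KO TAC 4).

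Tek and the junction genes varied least. Tek ranged from 43.1 to 53.3 CPM in Ctrl sham, 45.0 to 53.1 in KO sham, 44.7 to 50.2 in Ctrl TAC and 45.2 to 53.5 in KO TAC. Pecam1 ranged from 110 to 143 CPM and Cdh5 from 130 to 168 CPM over all 16 libraries. For Tek the 95% interval of the TAC effect was -8.67 to 13.2% in Ctrl and -10.7 to 10.6% in KO. For Pecam1 it was -7.59 to 16.9% in Ctrl and -12.6 to 10.6% in KO, and for Cdh5 -5.39 to 16% in Ctrl and -8.35 to 12.4% in KO; without KO TAC 4 none of these 3 was called. A change of Tek, Pecam1 or Cdh5 larger than these bounds is outside the intervals, and a smaller one could not be told from none with 4 animals a group.

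**Figure D3:**
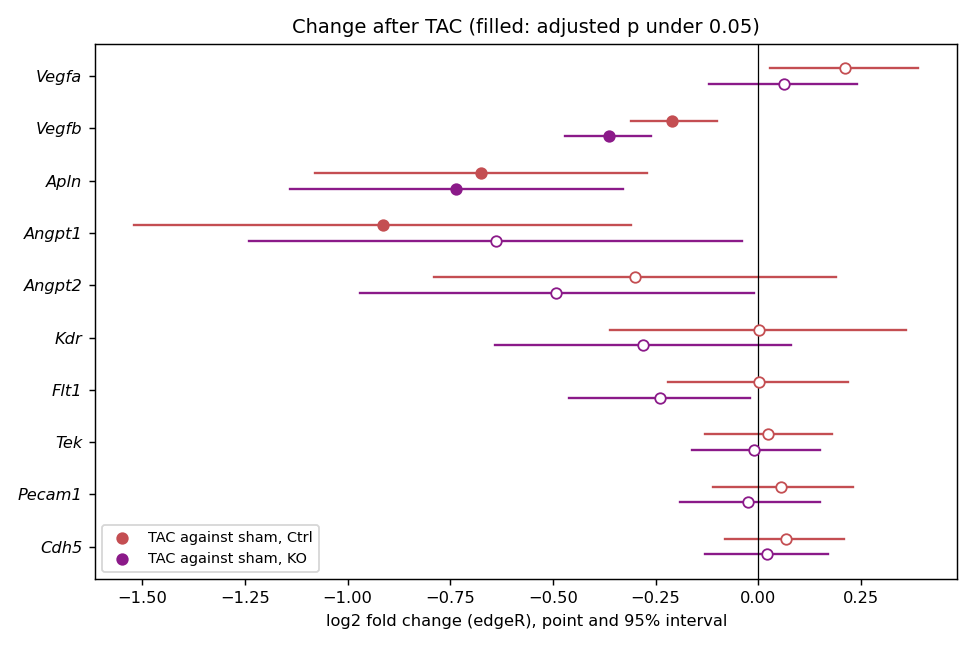
Log2 fold change of TAC against sham with its 95% interval for each gene, in Ctrl and in KO hearts; filled points passed the adjusted p threshold of 0.05. Filled points are Vegfb and Apln in both genotypes and Angpt1 in Ctrl, all to the left of 0.

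The second question was whether loss of Cardinal changed these genes. After TAC, 0 of 10 were called between KO and Ctrl (edgeR) and 0 had an unadjusted p under 0.05, where 2.68% of all genes were called and 18.5% had an unadjusted p under 0.05. After sham, 0 of 10 were called and 0 had an unadjusted p under 0.05, where 0.0% of all genes were called and 2.62% had an unadjusted p under 0.05. For the interaction 0 of 10 were called and 1 of 10, Vegfb, had an unadjusted p under 0.05, where 0.0109% and 11.1% of all genes did so. DESeq2 called 0 of 10 in each of these 3 comparisons as well. After TAC the 95% interval of KO against Ctrl was -11.7 to 12.9% for Vegfa, -12.2 to 1.57% for Vegfb, -27.9 to 27.4% for Apln and -31.8 to 57.3% for Angpt1. For the receptors it was -31.1 to 13.1% for Kdr, -24.7 to 1.67% for Flt1 and -9.01 to 12.7% for Tek, and for the junction genes -10.6 to 13.1% for Pecam1 and -11.2 to 8.85% for Cdh5. For Angpt2 it was -16.6 to 63.8%, and Angpt1 and Angpt2 had the widest intervals of the 10. Without KO TAC 4 the log2 differences of KO against Ctrl after TAC were -0.24 for Flt1 (adjusted p = 0.276) and -0.08 for Vegfb (adjusted p = 0.492), and the Apln difference turned from -0.06 to 0.05 (adjusted p = 0.932). Over all genes, 489 were called in this comparison, 63 without Ctrl TAC 2 and 12 with a term for the animal numbers starting with 25. Those numbers are of Ctrl TAC 2 to 4 and KO TAC 4, so genotype after TAC and this series cannot be fully told apart. Calls between KO and Ctrl after TAC among the list genes below carry the same limit.

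Ratios within pairs of partners were formed per kilobase of exon in each library, from pairs chosen after the levels were known, and are given with no test. Vegfa over Vegfb was 0.446, 0.5, 0.515 and 0.625 in Ctrl sham and 0.547, 0.561, 0.622 and 0.468 in KO sham. It was 0.680, 0.718, 0.656 and 0.739 in Ctrl TAC and 0.675, 0.728, 0.779 and 0.770 in KO TAC. All 8 TAC libraries lay above all 8 sham libraries, and the mean went from 0.521 ± 0.0750 to 0.698 ± 0.0373 in Ctrl and from 0.550 ± 0.0630 to 0.738 ± 0.0478 in KO (SD, n = 4). Vegfb, by which this ratio divides, already lay apart between all 8 TAC and all 8 sham libraries, so the ratio is not a separate result. Angpt1 over Angpt2 overlapped between sham and TAC within each genotype, while its Ctrl sham libraries (9.79 to 20.6) lay above its KO TAC libraries (4.70 to 9.54), with means of 13.0 ± 5.10 in Ctrl sham, 9.15 ± 5.73 in KO sham, 8.75 ± 3.91 in Ctrl TAC and 7.45 ± 2.18 in KO TAC. Kdr over Flt1 was between 0.948 and 2.09 in all libraries with group means from 1.36 to 1.40. Cdh5 over Pecam1, the pair of junction genes, was between 1.59 and 1.97 in all 16 libraries.

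**Figure D4:**
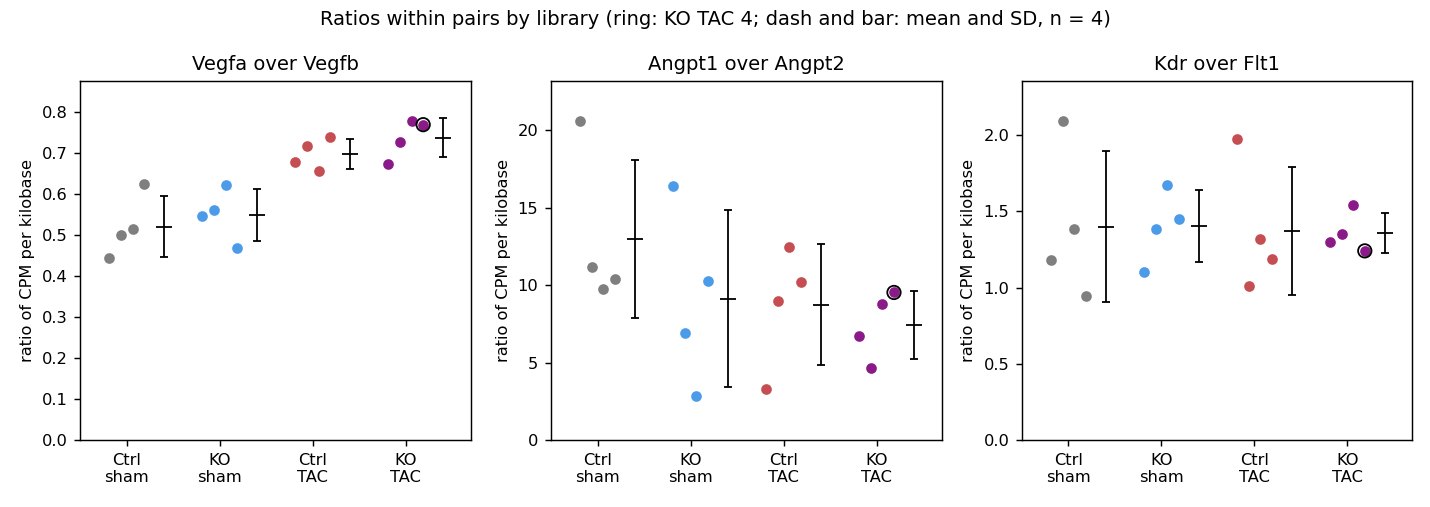
Ratio of CPM per kilobase within 3 pairs in the 16 libraries, with mean and SD (n = 4) and a ring around KO TAC 4. Vegfa over Vegfb lies at 0.446 to 0.625 in the sham libraries and at 0.656 to 0.779 in the TAC libraries, and the other pairs overlap between sham and TAC of the same genotype.

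The remaining ligands and receptors of the VEGF family moved in different directions. Of 6 tested, 1 rose and 1 fell after TAC in Ctrl and 2 rose and 1 fell in KO. Beside this and the list counts below, 20.0% of all genes were called after TAC in Ctrl, 10.4% higher and 9.6% lower. In KO 34.3% were called, 17.8% higher and 16.5% lower, and in the mean TAC effect 41.5% were called. Between KO and Ctrl after TAC 2.68% were called. Pgf, the placental growth factor, which like Vegfb binds Flt1, fell from 5.03 ± 0.856 to 2.96 ± 0.568 CPM in Ctrl (-0.77, adjusted p = 0.00420) and from 5.23 ± 1.13 to 2.94 ± 0.483 in KO (-0.83, adjusted p = 0.00114; 0.00300 without KO TAC 4). Flt4, the receptor of lymphatic endothelium, rose by 0.24 in Ctrl (adjusted p = 0.0424) and by 0.23 in KO (adjusted p = 0.0295), and both calls were lost without KO TAC 4 (0.0519 and 0.0652). Vegfc, a ligand of Flt4, was at 4.94 ± 0.579 CPM in Ctrl TAC and rose in KO from 4.24 ± 0.604 to 7.09 ± 1.09 CPM (0.74, adjusted p = 0.000329). Vegfc was the only gene of this list called between KO and Ctrl after TAC (0.52, adjusted p = 0.0451; 0.0357 without KO TAC 4), and that call was lost without Ctrl TAC 2. Of 4 further genes tested, Tie1 and Ptprb, which act with Tek, the apelin receptor Aplnr, and Angptl4, 0 were called in either genotype; in the mean TAC effect 2 were higher, Tie1 (0.11, adjusted p = 0.0392) and Ptprb (0.10, adjusted p = 0.0466), and 1 was lower, Angptl4 (-0.84, adjusted p = 0.0405), an angiopoietin-like inhibitor of lipoprotein lipase that does not bind Tek, and all 3 calls were lost without KO TAC 4 (adjusted p = 0.0591, 0.0835 and 0.0773).

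Of 20 endothelial identity genes outside the set, 1 rose in Ctrl (Cd34, 0.45, adjusted p = 0.00145), where 20.0% of all genes were called, and 5 rose and 1 fell in KO, or 6 and 0 without KO TAC 4, where 34.3% of all genes were called. In KO, Cldn5, a tight junction claudin, rose from 9.71 ± 1.17 to 17.3 ± 7.24 CPM (0.83, adjusted p = 0.0328; 0.000964 without KO TAC 4), and Cd34, also a marker of fibroblasts and progenitors, by 0.72 (adjusted p = 6.67e-06). Ushbp1 fell by 0.21 (adjusted p = 0.0299), a call lost without KO TAC 4 (0.0707). Between KO and Ctrl after TAC, 0 of these 20 genes were called, and 0 without Ctrl TAC 2. Without KO TAC 4, 2 were called higher in KO, Cldn5 (edgeR adjusted p = 0.00899, against 0.0652 with it) and Fli1 (0.0371, against 0.054). The endothelial Notch list had 2 of 11 higher in Ctrl, Heyl (0.54) and Notch4 (0.34), and 1 of 11 in KO, Heyl (0.80); without Ctrl TAC 2 the count was 1 in Ctrl and 2 in KO, and without KO TAC 4 it was 2 in each. Of 8 capillary genes 1 fell in Ctrl, the fatty acid transporter Cd36 (-0.34, adjusted p = 0.00250), and 4 fell in KO, with the water and glycerol channel Aqp7 at -0.76 (adjusted p = 0.000281) and the carbonic anhydrase Car4 at -0.66 (adjusted p = 0.00895). Cardiomyocytes express Cd36 too. Car4 (-0.69, adjusted p = 0.0498) and Aqp7 (-0.65, adjusted p = 0.0196) were also lower in KO than in Ctrl after TAC, and both of these calls were lost without Ctrl TAC 2.

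Arterial genes had 1 of 8 higher in Ctrl and 3 of 8 in KO, led by the elastic fibre gene Fbln5 (0.57 and 0.89), which was also higher in KO than in Ctrl after TAC (0.46, adjusted p = 0.0167; 0.00807 without KO TAC 4). Without KO TAC 4 the count in KO was 2 of 8. Of all genes, 10.4% were called higher in Ctrl and 17.8% in KO. Venous genes had 1 of 6 higher in Ctrl and 2 of 6 in KO, with the leukocyte adhesion gene Selp rising from 0.0875 ± 0.0400 to 0.338 ± 0.0655 CPM in Ctrl (1.91, adjusted p = 0.00638) and Vwf rising by 0.48 in KO. Of 8 lymphatic rows, 2 rose and 1 fell in Ctrl and 6 rose in KO, with Pdpn at 0.73 in Ctrl and 1.22 in KO. Prox1 (-0.36 in Ctrl and -0.33 in KO) and Lyve1 (0.21 and 0.15) were not called in either genotype, and the fall in Ctrl was that of Reln (-0.32, adjusted p = 0.0292). The summed level of the 8 lymphatic rows overlapped between the groups, at 108 to 130 CPM in Ctrl sham, 107 to 121 in KO sham, 97.4 to 131 in Ctrl TAC and 117 to 128 in KO TAC. Ccl21a stands in 2 of these rows, as near-identical copies between which the counting can split reads, so its count is uncertain. Mmrn1 was higher in KO than in Ctrl after TAC (0.37, adjusted p = 0.0216; 0.0321 without KO TAC 4), and neither Fbln5 nor Mmrn1 was called between the genotypes without Ctrl TAC 2. Without KO TAC 4, 4 of 8 lymphatic rows rose in KO and 1 in Ctrl. Of 5 endocardial genes tested, 1 rose in Ctrl, Plvap (0.51), and 4 in KO, with Plvap at 0.93 and Nrg1 at 0.77; without KO TAC 4 the count in KO was 3, and the call of Nrg1 was lost (adjusted p = 0.0518).

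Many genes on a list of sprouting endothelium and its matrix rose, while Apln, also made by sprouting endothelium, fell. Of 13 tip cell and sprouting genes, 8 rose and 0 fell in each genotype, or 7 in KO without KO TAC 4 (medians 0.33 in Ctrl and 0.53 in KO), where 10.4% of all genes were called higher in Ctrl and 17.8% in KO. Col4a2 and Col4a1, the chains of basement membrane collagen, rose by 1.04 and 1.03 in Ctrl and by 1.10 and 1.05 in KO, with Col4a2 going from 211 ± 20.2 to 435 ± 49.9 CPM in Ctrl and from 213 ± 26.3 to 455 ± 27.7 CPM in KO. The tip cell gene Esm1 rose by 1.04 in Ctrl (adjusted p = 0.0162) and by 0.75 in KO (adjusted p = 0.0498; 0.0817 without KO TAC 4). Fibroblasts and pericytes also make Col4a1 and Col4a2, and 0 of the 13 genes were called between KO and Ctrl after TAC. The genes that rose include the basement membrane genes Lamb1 and Nid2 as well. Cxcr4, on the same list, was not called in Ctrl (0.33, adjusted p = 0.33) or in KO (0.24, adjusted p = 0.435). Dll4, on the Notch list, was not called either (-0.06, adjusted p = 0.79 in Ctrl, and -0.25, adjusted p = 0.115 in KO).

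Inhibitors of angiogenesis had the highest median changes of the 13 lists. Of 12, 5 rose and 1 fell in Ctrl and 7 rose (6 without KO TAC 4) and 1 fell in KO (medians 0.39 and 0.74). Of all genes, 10.4% were called higher in Ctrl and 17.8% in KO. Thbs1 (thrombospondin 1) rose from 3.53 ± 0.984 to 15.2 ± 2.72 CPM in Ctrl (2.12, adjusted p = 2.32e-06) and from 4.57 ± 0.967 to 28.5 ± 1.49 CPM in KO (2.64, adjusted p = 7.26e-08). Serpinf1 (PEDF) rose from 13.9 ± 1.66 to 36.7 ± 7.89 CPM in Ctrl (1.40) and from 13.9 ± 0.426 to 56.8 ± 4.87 CPM in KO (2.03). Thbs2, a close relative of Thbs1, fell by 0.94 in Ctrl and by 0.75 in KO. After TAC, Thbs1 (0.91, adjusted p = 0.0183; 0.0251 without KO TAC 4), Serpinf1 (0.63, adjusted p = 0.0143 with and without it) and Sparc (0.35, adjusted p = 0.0485) were higher in KO than in Ctrl; the Sparc call was lost without KO TAC 4, and without Ctrl TAC 2 only 1 of the 3 calls was left. Fibroblasts make Serpinf1 and Sparc. Of 8 fibroblast markers, 1 was called between KO and Ctrl after TAC, Postn, which was higher in KO (list median 0.36). The part of this in the result on the inhibitors was not tested.

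Other growth factors split. Of 11 tested, 5 rose and 3 fell in Ctrl and 6 rose and 3 fell in KO, where 20.0% and 34.3% of all genes were called. Hbegf, an EGF receptor ligand, rose from 12.9 ± 0.717 to 32.8 ± 10.6 CPM in Ctrl (1.34) and from 13.1 ± 1.85 to 32.9 ± 1.79 CPM in KO (1.33), and pleiotrophin (Ptn) rose by 1.04 and 1.25. Fgf2 fell from 26.3 ± 1.96 to 16.9 ± 1.57 CPM in Ctrl (-0.64, adjusted p = 1.89e-05) and by 0.45 in KO, and Pdgfa fell by 0.48 and 0.35. Of 15 hypoxia-inducible factors and targets, 1 rose and 1 fell in Ctrl and 4 rose and 2 fell in KO. These counts stand beside the same shares of all genes, 20.0% in Ctrl and 34.3% in KO. The hypoxia target Car9 rose by 1.54 in Ctrl and by 1.67 in KO, from 0.275 ± 0.136 to 0.793 ± 0.223 CPM in Ctrl, while Egln1, the prolyl hydroxylase that marks HIF for degradation, fell by 0.37 and 0.49. Hif1a was at 75.8 ± 9.72 CPM in Ctrl TAC (0.12, adjusted p = 0.542) and rose in KO from 63.1 ± 5.22 to 101 ± 8.78 CPM (0.68, adjusted p = 0.000275), and Epas1, the HIF of endothelium, fell in KO by 0.30 (adjusted p = 0.00309).

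**Figure D5:**
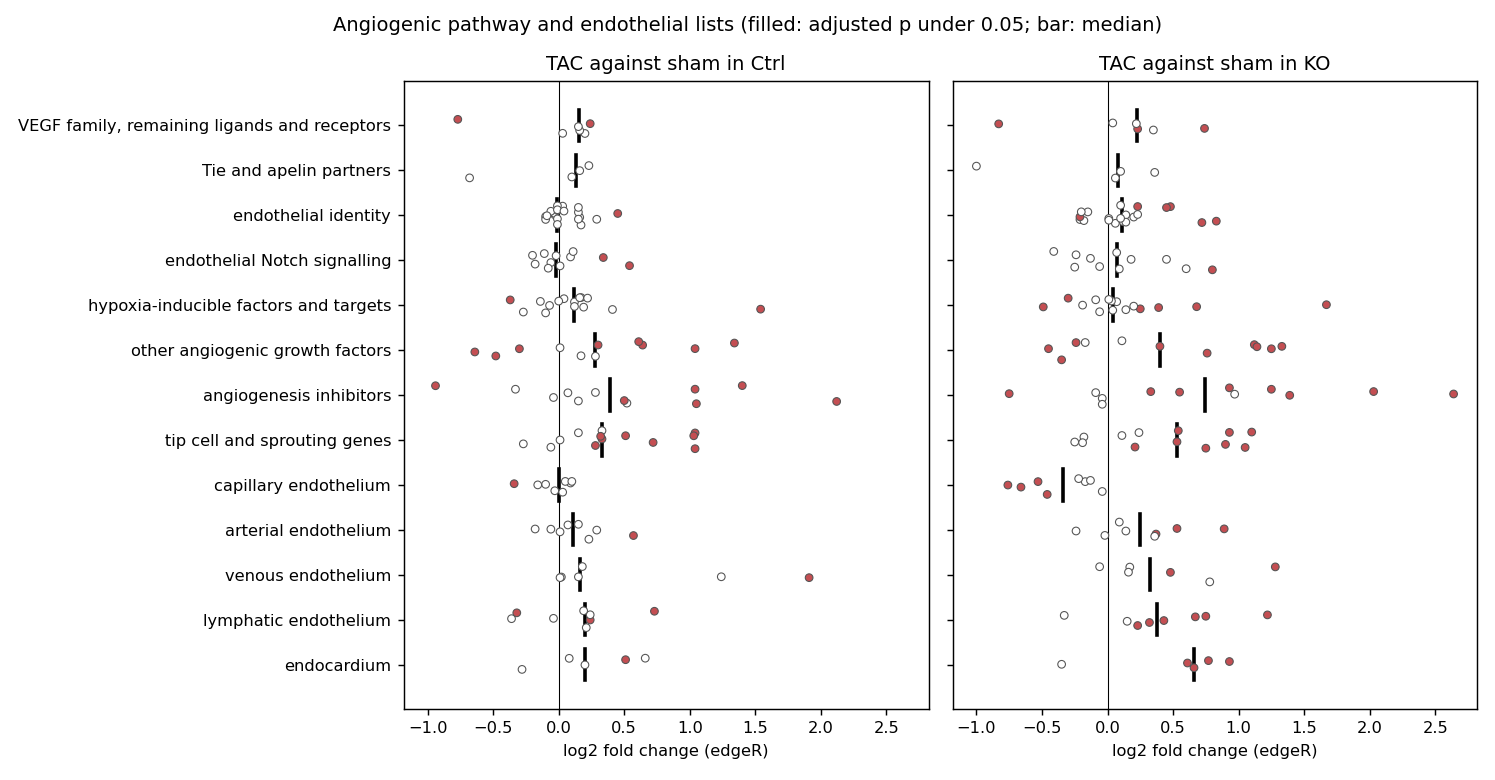
Log2 fold change of TAC against sham for each gene of 13 lists of angiogenic and endothelial genes, in Ctrl (left) and KO (right); filled points passed the adjusted p threshold and black bars are medians. The medians of sprouting genes and inhibitors lie to the right of 0 in both genotypes, and that of capillary genes in KO lies to the left.

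The summed marker levels of several other cell types differed between sham and TAC. Summed over 10 cardiomyocyte genes, the level was 56300 to 64100 CPM in Ctrl sham, 57000 to 62600 in KO sham, 50000 to 54700 in Ctrl TAC and 43300 to 45700 in KO TAC. Of these genes 2 rose and 5 fell in Ctrl, and 1 rose and 7 fell in KO. Myh6 made up the largest part of the sum, with means of 24600 CPM in Ctrl sham, 23700 in KO sham, 20000 in Ctrl TAC and 15300 in KO TAC. Mybpc3 rose in both genotypes and Actn2 in Ctrl (0.24, adjusted p = 0.00501), so the sum does not stand for every gene in it. Summed over 8 fibroblast genes, the level was 1210 to 1390, 1260 to 1320, 1560 to 2060 and 2240 to 2470 CPM in the same order of groups, with 4 of 8 higher in Ctrl (6 without Ctrl TAC 2) and 7 of 8 in KO. Over 9 pericyte and smooth muscle genes it was 1140 to 1210, 1070 to 1140, 969 to 1070 and 927 to 1070 CPM, with 2 higher and 1 lower in Ctrl and 3 higher and 1 lower in KO. Macrophage genes summed to 176 to 235, 173 to 225, 244 to 303 and 265 to 372 CPM, with 5 of 8 higher in Ctrl and 8 of 8 in KO. Lymphocyte genes (0 of 6 in Ctrl, 3 of 6 higher in KO, 2 without KO TAC 4) summed to at most 3.96 CPM, and 0 of 7 erythrocyte and platelet genes were called. The cardiomyocyte sum was lower in TAC than in sham in both genotypes, as Vegfb was, and the part of this in the Vegfb result was not tested. The lower pericyte and smooth muscle sum came with Abcc9, which fell from a mean of 415 to 266 CPM in Ctrl (-0.64, adjusted p = 4.94e-06), while Cspg4 (0.45) and Pdgfrb (0.26) rose and Rgs5 (473 against 484 CPM) and Kcnj8 (36.1 against 35.8 CPM) passed no test.

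Genes whose pattern over the 16 libraries was nearest to that of the called factors were found by the root mean square difference in log2 CPM after centring each gene, among 10200 genes. For Vegfb, whose own spread about its mean was 0.158, the nearest were Hibadh (0.0418), Aaed1 (0.0420) and Vdac1 (0.0439), of which Hibadh and Vdac1 encode mitochondrial proteins. For Apln, with a spread of 0.433, they were Dusp18 (0.194), Amotl2 (0.219) and Armc2 (0.229). For Angpt1, with a spread of 0.538, they were Hdac4 (0.233), Hlf (0.247) and Apex2 (0.253). The match was closer for Vegfb, relative to its own spread, than for Apln and Angpt1.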

How the data were processed

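Poly(A)-selected TruSeq libraries were read as 150-base pairs, and the authors deposited raw counts per gene. The submitters' processing notes name cutadapt 2.3, FastQC, HISAT2 2.1.0, edgeR 3.26.1 and GRCm38; the counting program, annotation and use of strand were not given in the sources used here. Symbols and exon lengths came from GENCODE M21 (55227 of 55487 identifiers matched). Counts of 18275 genes passing filterByExpr were fitted together in edgeR 4.0.16 (R 4.3.3) with TMM scaling, 1 coefficient per group and robust quasi-likelihood tests. The test was checked on simulated counts. Calls use Benjamini-Hochberg adjusted p under 0.05, SE is the fold change divided by the root of F, and intervals are 95%. Depth was 53169437 to 79404714 counts. Labels put 4 animals in each group; replicate numbers follow accession order.

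The members and the 19 gene lists were chosen with earlier results of these data known. Named were all members, the 2 largest called rises and falls per list and contrast, and the 3 nearest genes of each called member. Aplnr, Sparc, Fli1, Rgs5, Kcnj8, Lamb1, Nid2, Cxcr4, Dll4, Prox1 and Lyve1 were named in addition, after their values were seen. The mean TAC effect was added after seeing the data. Alternatives were RLE scaling, DESeq2 1.42.0, other filters, terms for animal numbers, separate fits of 8 libraries, and fits without 1 or 2 libraries. Other analyses of these libraries were not used here.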

Additional observations from a re-analysis of the deposited data

Results flagged for a closer look

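Within groups of 4 libraries, the gap between the outermost library and its neighbour, divided by the group's range, passed Dixon's 95% critical value in 3 of the 40 groups formed by 10 genes and 4 groups; chance passes about 1 in 20. Kdr in Ctrl TAC 1 was at 193 CPM, with the other 3 Ctrl TAC libraries at 120 to 128 CPM (gap over range 0.887). Angpt2 in the same library was at 2.78 CPM, with the others at 1.66 to 1.81 CPM (0.866). Flt1 in Ctrl TAC 2 was at 189 CPM, with the others at 144 to 151 CPM (0.841).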

How the results depend on the processing

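Of 1420 single-gene values under the alternatives, 1325 kept their direction and side of the threshold, 14 lost and 22 gained a call, and 59 changed sign, where a value that prints as 0.00 has no direction; no value that changed sign was called in the fit reported. The number of genes called after TAC in Ctrl was 1 when the animal-number series was a term (numbers starting with 25: Ctrl TAC 2 to 4 and KO TAC 4, no sham library) and 1 to 3 when 1 library was left out (1 without Ctrl sham 2, Ctrl TAC 2 or Ctrl TAC 4). In KO it was 4 with that term. Ctrl TAC 1 is the lone Ctrl TAC library outside that series; with the term, values in Ctrl were Vegfb -0.20 (adjusted p = 0.0626), Apln -0.32 (0.372) and Angpt1 -1.40 (0.0242), and in KO Angpt1 was -0.79 (0.0372) and Flt1 -0.28 (0.0496). With animal numbers starting with 33 as a term, Apln in KO was -0.54 (0.150).

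Signs changed with the 25 series for Angpt2 in Ctrl (0.06) and KO against Ctrl after TAC (-0.01), Kdr in the mean TAC effect (0.01), Tek (-0.01) and Pecam1 (-0.09) in KO against Ctrl after TAC and Pecam1 in KO (0.03). With the 33 numbers they changed for KO against Ctrl after sham in Vegfa (-0.01) and Cdh5 (-0.01), the interaction in Vegfa (0.01) and Apln (0.08), and TAC in KO for Tek (0.04) and Pecam1 (0.09). Without the filter on low counts Tek in KO was 0.01. Without Ctrl TAC 2 and KO TAC 4, Apln was 0.02 in KO against Ctrl after TAC and 0.02 in the interaction.

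With 1 library left out, TAC in Ctrl ran from -0.01 to 0.09 for Tek, -0.03 to 0.09 for Pecam1 and -0.01 to 0.11 for Cdh5, and TAC in KO from -0.01 to 0.12 for Vegfa, -0.06 to 0.04 for Tek, -0.07 to 0.06 for Pecam1 and -0.03 to 0.06 for Cdh5. KO against Ctrl after TAC ran from -0.15 to 0.08 for Apln, -0.13 to 0.21 for Angpt1, -0.25 to 0.01 for Kdr, -0.03 to 0.05 for Tek, -0.03 to 0.09 for Pecam1 and -0.07 to 0.05 for Cdh5. After sham it ran from -0.06 to 0.10 for Flt1 and -0.02 to 0.05 for Cdh5. The interaction ran from -0.21 to 0.09 for Apln, -0.34 to 0.05 for Angpt2, -0.10 to 0.01 for Tek, -0.12 to 0.01 for Pecam1 and -0.09 to 0.03 for Cdh5, and the mean TAC effect from -0.02 to 0.04 for Tek and -0.03 to 0.06 for Pecam1. The causes were not tested. No paired analysis was possible because the labels give no replicate numbers shared between groups. With 4 animals a group, small changes of Apln, Angpt1, Angpt2 and Kdr are the least well resolved.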

Other observations

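In KO sham and in Ctrl TAC, 1 library had low Angpt1 together with high levels of several endothelial genes, a pattern picked out after the values were seen and given with no test. KO sham 3 had the lowest Angpt1 of its group (19.3 CPM) and the highest Kdr (182), Angpt2 (4.75), Pecam1 (143), Cdh5 (154) and Tek (53.1 CPM). Ctrl TAC 1 had the lowest Angpt1 of all 16 libraries (13.1 CPM) and the highest Kdr (193), Cdh5 (168), and, within its group, Angpt2 (2.78), Pecam1 (138) and Tek (50.2 CPM). Flt1 did not share this: it was at 164 CPM in KO sham 3, within the 161 to 165 CPM of its group, and at 147 CPM in Ctrl TAC 1, near the low end of 144 to 189 CPM. The summed level of the 20 endothelial identity genes was also highest of their groups in these libraries, at 909 CPM in KO sham 3 and 947 CPM in Ctrl TAC 1. Ctrl TAC 1 was the library with the highest Cardinal level, 8.02 CPM.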
